A study of Mus musculus with 6 samples.

Results

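Imprinted genes are expressed mainly from the copy inherited from the mother or mainly from the copy inherited from the father. The 37 imprinted genes described here were chosen by symbol from 18 known mouse loci, and all 37 were found among the 46983 genes in the count files. By textbook knowledge of the mouse, 23 of them are expressed from the paternal allele and 13 from the maternal allele, and Gnas makes several products from both. Transcripts were measured by RNA sequencing in fibroblasts cultured from C57BL/6 mouse embryos; fibroblasts are the matrix-forming cells of connective tissue. The embryos were 14 days old and the cells were at passage 16, in DMEM medium with 10% serum. Of the 6 libraries, 3 were labelled SphK2 null and 3 wild type as genotype, and the series compares these genotypes. SphK2 is sphingosine kinase 2, an enzyme that makes the signalling lipid sphingosine-1-phosphate. How the null allele was made, and whether the 3 libraries of a label came from separate embryos or cultures, is not stated in the sources used here. The spread behind each p-value is thus that between libraries, and it may be technical.

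The labels were checked against Sphk2 itself, and its counts went against them. Sphk2 had 964, 883 and 921 counts in the null-labelled libraries, against 654, 418 and 503 in the wild-type-labelled ones. Its level was 50.02 ± 1.35 CPM (counts relative to the library total, with TMM scaling) in the null-labelled libraries and 27.3 ± 0.907 CPM in the wild-type-labelled libraries (SD, n = 3 each). The counts sum all exons, so a transcript that lacks part of the gene would still be counted. Every direction below is therefore between labels. Library totals were 16804841 to 19148434 counts for the null label and 15598566 to 23681718 counts for the wild-type label, at which 3 counts are 0.127 to 0.192 CPM before TMM scaling.

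Most imprinted genes lie in clusters, in which a differentially methylated control region sets which parental copy of each gene is active. Within a cluster, maternally and paternally expressed genes often lie side by side, and long noncoding RNAs such as H19, Meg3, Airn and Kcnq1ot1 take part in the control of their neighbours. Many imprinted genes are expressed in the embryo and placenta, where they act on growth, and in mice many of them fall in level together as tissues mature after birth. Reads from an inbred strain do not tell the parental copies apart, so all values here are totals over both alleles.

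The sequences just upstream of the start site are shown for the genes on which the results below turn. Ndn, Magel2 and Peg12 all but disappeared under the null label while Mkrn3, which lies between Magel2 and Peg12, kept reads. Dlk1 and Meg3 are neighbours expressed from opposite alleles, and both fell. Phlda2 rose the most of the 28 genes of the set that were tested. Each line holds the 250 bases before the RefSeq start in GRCm38.p6, 5′ to 3′ on the strand of the gene, with every CG pair, the site of DNA methylation, in capitals. The windows are chr7:62348027-62348276 (plus strand) for Ndn, chr7:62376729-62376978 (plus) for Magel2, chr7:62420154-62420403 (minus) for Mkrn3, chr7:62464511-62464760 (minus) for Peg12, chr12:109452573-109452822 (plus) for Dlk1, chr12:109540746-109540995 (plus) for Meg3 and chr7:143502525-143502774 (minus) for Phlda2. The last 17 bases of the Phlda2 window lie within the gene as the count files place it.
Ndn: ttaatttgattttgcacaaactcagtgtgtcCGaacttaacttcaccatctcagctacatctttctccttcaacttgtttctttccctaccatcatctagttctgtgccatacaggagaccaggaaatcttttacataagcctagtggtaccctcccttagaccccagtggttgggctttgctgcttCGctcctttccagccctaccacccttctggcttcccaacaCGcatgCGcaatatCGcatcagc
Magel2: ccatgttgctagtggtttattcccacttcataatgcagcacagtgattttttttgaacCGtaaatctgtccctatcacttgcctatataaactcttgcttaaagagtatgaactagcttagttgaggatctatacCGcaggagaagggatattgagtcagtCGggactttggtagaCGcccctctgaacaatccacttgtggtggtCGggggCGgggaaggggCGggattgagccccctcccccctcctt
Mkrn3: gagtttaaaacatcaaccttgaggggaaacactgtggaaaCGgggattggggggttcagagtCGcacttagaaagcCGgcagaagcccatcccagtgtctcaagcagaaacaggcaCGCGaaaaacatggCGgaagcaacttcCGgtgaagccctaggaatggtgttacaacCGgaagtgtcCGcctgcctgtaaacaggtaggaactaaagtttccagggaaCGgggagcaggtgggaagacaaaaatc
Peg12: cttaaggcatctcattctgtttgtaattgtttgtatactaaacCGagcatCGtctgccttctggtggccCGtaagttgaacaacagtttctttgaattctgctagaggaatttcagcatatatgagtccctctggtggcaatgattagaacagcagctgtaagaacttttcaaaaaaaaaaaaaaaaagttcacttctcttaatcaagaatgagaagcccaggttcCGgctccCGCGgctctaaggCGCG
Dlk1: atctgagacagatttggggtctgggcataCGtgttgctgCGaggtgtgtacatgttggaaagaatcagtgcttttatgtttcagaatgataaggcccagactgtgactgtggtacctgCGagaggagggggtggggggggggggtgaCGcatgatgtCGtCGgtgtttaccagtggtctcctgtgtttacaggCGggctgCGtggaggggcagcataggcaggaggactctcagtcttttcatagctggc
Meg3: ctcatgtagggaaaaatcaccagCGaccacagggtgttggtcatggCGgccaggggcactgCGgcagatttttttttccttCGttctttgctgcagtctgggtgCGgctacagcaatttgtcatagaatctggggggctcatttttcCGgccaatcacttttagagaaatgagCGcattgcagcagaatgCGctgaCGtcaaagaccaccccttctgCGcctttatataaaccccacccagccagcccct
Phlda2: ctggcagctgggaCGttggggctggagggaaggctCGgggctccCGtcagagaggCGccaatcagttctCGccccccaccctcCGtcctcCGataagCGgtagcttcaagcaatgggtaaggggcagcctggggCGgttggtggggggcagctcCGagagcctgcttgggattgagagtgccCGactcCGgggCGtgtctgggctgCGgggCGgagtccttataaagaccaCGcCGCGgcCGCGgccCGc

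The number of CG pairs in these windows was 5 for Ndn, 7 for Magel2, 10 for Mkrn3, 8 for Peg12, 8 for Dlk1, 10 for Meg3 and 21 for Phlda2. RefSeq windows were matched for 30 of the 37 genes, 44 windows in all, with a median of 9 CG pairs, against a median of 6 over 32851 windows of all genes. The windows were also searched on both strands for TGCCGC, the hexamer that the zinc finger protein ZFP57 binds when its CG is methylated, which reads GCGGCA on the other strand. It was found in 8 of the 44 windows (18.2%), which belong to Copg2, Meg3, Mest, Nap1l5, Plagl1, Zdbf2 and Zim1, and in 8.68% of the windows of all genes. The 8 include the Mest windows chr6:30737800-30738049 and chr6:30737803-30738052, which are nearly the same sequence. Windows on chromosome 18, where Impact lies, were left out of the 44 but not of those of all genes. Of the printed windows, the one of Meg3 holds it, once, as gCGgca. A match describes these letters only, and no methylation was measured in this study.

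Of the 37 imprinted genes, 28 passed the filter on low counts and 9 did not. Of the 28, 19 were lower in the null-labelled libraries and 7 were higher at an edgeR adjusted p under 0.05, with maternally and paternally expressed genes in both directions, and Nespas and Zrsr1 were not called. Differences between the labels were common across the transcriptome, since 79.2% of the 15199 tested genes were called, 41.1% lower and 38.1% higher. Of the imprinted genes tested, 67.9% were lower and 25.0% were higher. The losses were large. For 14 of the 28 (50%) the level was more than 16-fold lower, against 7.41% of all tested genes, and the edgeR quasi-likelihood adjusted p of these 14 was 7.02e-29 or smaller. The median log2 fold change was -4.72 over the 28 and -0.02 over all tested genes. These shares carry limits. The genes were chosen with earlier results of these data known. For 12 of the 28, all of them among the 14, every null-labelled library was under the filter level of 0.533 CPM (before TMM scaling). The same held for 7.72% of all tested genes. These 12 were tested only because of the wild-type-labelled counts and could hardly differ other than downwards. None of the 28 was under that level in every wild-type-labelled library. The libraries of the 2 labels did not overlap in CPM for 25 of the 28, against 79.9% of all tested genes.

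**Figure D1:**
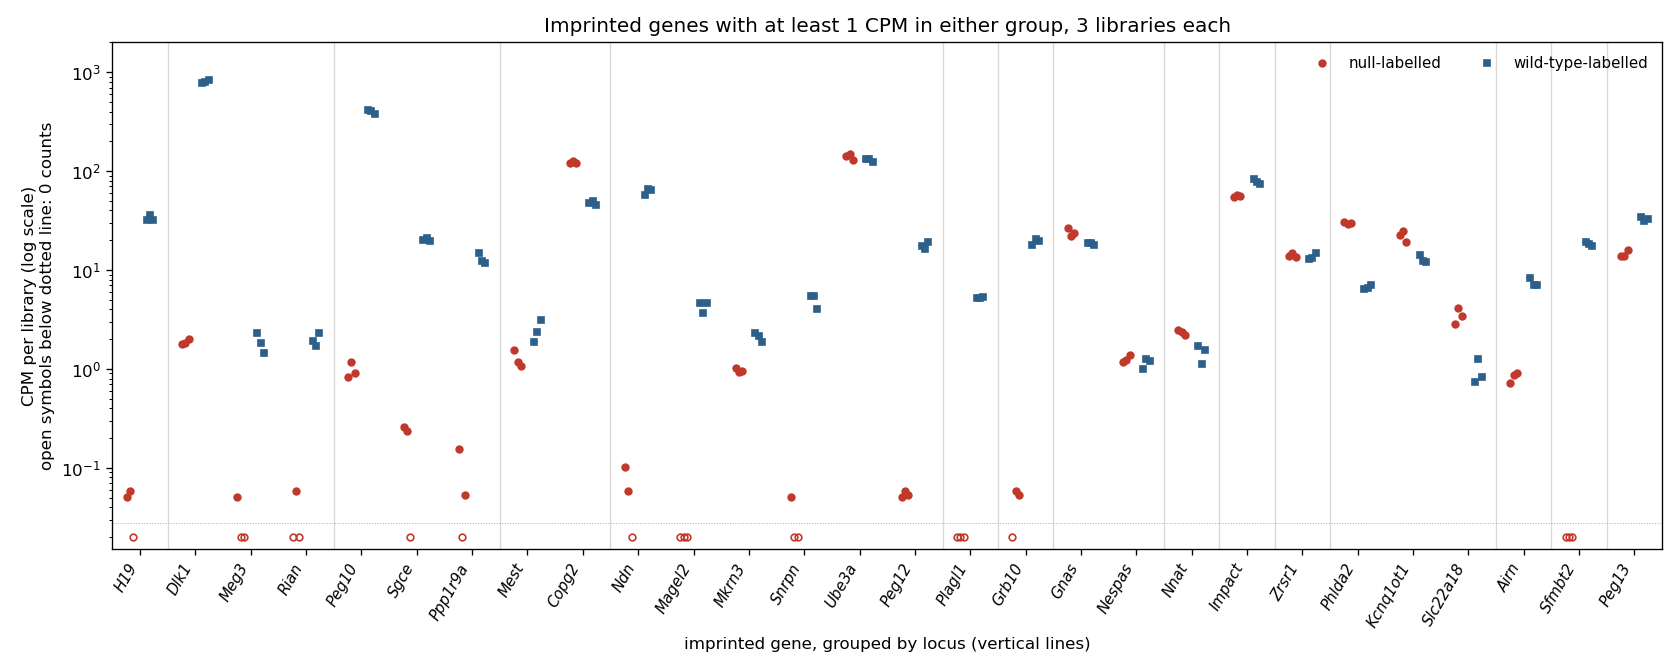
CPM on a log scale in each of the 3 null-labelled (red circles) and 3 wild-type-labelled libraries (blue squares) for the 28 imprinted genes with at least 1 CPM on average under either label, ordered by locus. Open symbols below the dotted line are libraries with 0 counts: the null-labelled libraries of Magel2, Plagl1 and Sfmbt2 all lie there, and the wild-type-labelled libraries of Dlk1 lie between 780 and 832 CPM.

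The genes that fell by more than 16-fold came from 7 of the 15 loci with a tested gene. The smallest of the 14 losses was a log2 fold change of -6.27, and the most negative value of the other 14 was -3.17. Imprinted genes outside the set, named after their values were seen, fell between these values, with log2 fold changes of -6.02 for Cd81, -4.75 for Cdkn1c and -4.72 for Igf2r. Over the null-labelled libraries, 18 of the 37 genes had 3 counts or fewer in all, and 8 had none. In bulk samples such as these, fewer cells of a type and less RNA per cell cannot be told apart.

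The summed level of the paternally expressed genes was 113 to 122 CPM in the null-labelled libraries and 1481 to 1496 CPM in the wild-type-labelled ones. The maternally expressed genes summed to 285 to 308 CPM in the null-labelled libraries, against 246 to 263 CPM in the wild-type-labelled ones. Most of the maternal sum was Ube3a and Copg2, which are imprinted only in some tissues. They stood at 139 and 123 CPM under the null label, against 130 and 48.0 CPM under the wild-type label. Per length, in RPKM (CPM per kilobase of exon), the paternal sum was 27.2 under the null label and 293 under the wild-type label. The maternal sum was 72.7 and 42.4 RPKM under the same labels, of which Phlda2 alone held 39.8 and 8.82 RPKM. A few genes carried these sums: Dlk1 made up 45.6% and Peg10 22.6% of the summed CPM of all 37 genes under the wild-type label, and Ube3a made up 31.9% and Copg2 28.1% of that under the null label. Of the 18 tested paternally expressed genes, 14 were lower, 9 of them by more than 16-fold, Nnat and Kcnq1ot1 were higher, and the median log2 fold change was -5.04 (-4.75 with genes lacking null-labelled counts set at their bound). Of the 9 tested maternally expressed genes, H19, Meg3, Rian, Ppp1r9a and Grb10 were lower, each by more than 16-fold, Copg2, Ube3a, Phlda2 and Slc22a18 were higher, and the median log2 fold change was -6.27. No test between alleles was made.

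**Figure D2:**
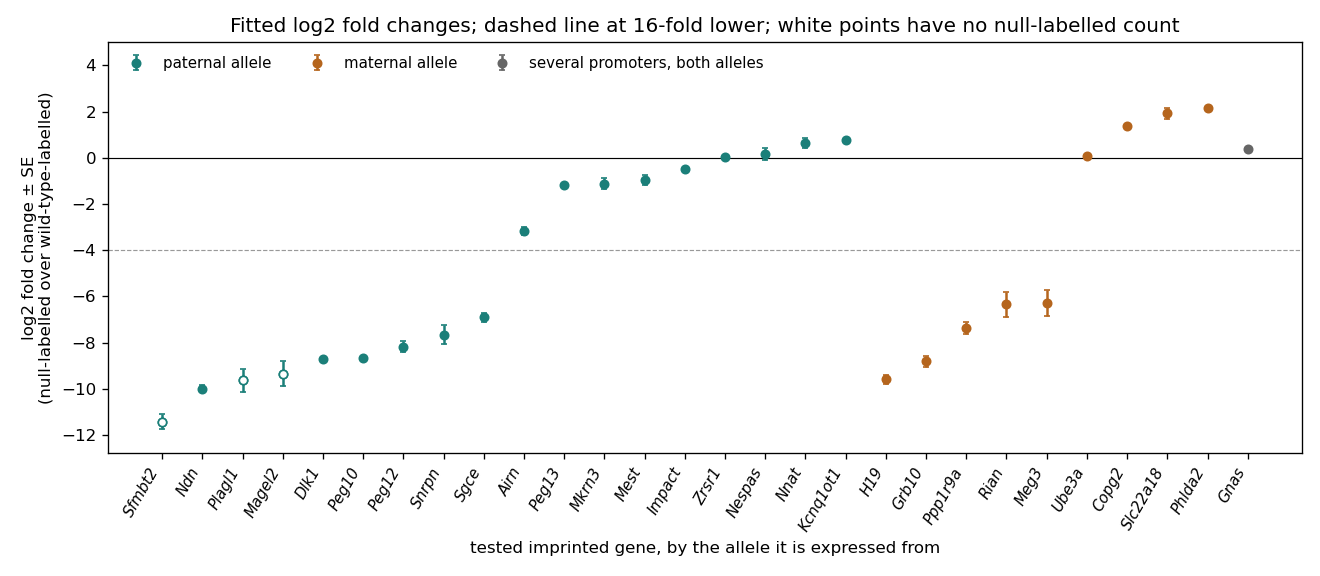
Fitted log2 fold change ± SE (null-labelled over wild-type-labelled, edgeR, 3 libraries each) of the 28 tested imprinted genes, grouped by the parental allele they are known to be expressed from. The dashed line marks 16-fold lower. Values of -6.27 and below are seen in both allele groups, and the white points are fits against 0 counts, which are no measure of size.

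The Snrpn-Ube3a locus on chromosome 7 is the imprinted domain that corresponds to the human Prader-Willi and Angelman region. It held 6 of the genes, of which 4 were all but lost, 1 fell by much less and 1 differed little. Ndn encodes necdin, a MAGE family protein that restrains cell growth in neurons and other cells, and lies on the plus strand at chr7:62348277-62349928. It had 2, 1 and 0 counts in the null-labelled libraries, against 1337, 1004 and 1221 counts in the wild-type-labelled ones. The null-labelled libraries were near 0 and far from the others. The mean level was 0.054 ± 0.051 CPM under the null label and 62.4 ± 4.37 CPM under the wild-type label (SD, n = 3 each), and the ratio of the wild-type-labelled to the null-labelled level was 1142, with a 95% counting interval of 391 to 5541. The log2 fold change was -10.00 ± 0.16 (SE), and -10.81 without null-labelled replicate 1.

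Magel2, a MAGE family partner of ubiquitin ligases and a neighbour of Ndn, had no count in the null-labelled libraries, against 107, 56 and 89 counts in the wild-type-labelled ones. With the null-labelled group set at 3 counts, its level was at least 80.8-fold lower. Peg12, also named Frat3, a relative of the FRAT proteins that bind GSK3, had 1, 1 and 1 counts in the null-labelled libraries, against 411, 247 and 366 in the wild-type-labelled ones. The ratio was 328, with a counting interval of 112 to 1595, and the groups did not overlap. Snrpn, which encodes a core spliceosomal protein from the imprinting centre of the domain, had 1, 0 and 0 counts in the null-labelled libraries, against 128, 83 and 77 in the wild-type-labelled ones. Its ratio was 277, with a counting interval of 49.3 to 10981, and without null-labelled replicate 1 the null-labelled group had no count. Of the exonic bases of Snrpn, 27.3% lie in exons of other genes, mainly Gm38393, and reads there were not counted. Gm38393 had 0 counts over the null-labelled libraries and 87 over the wild-type-labelled ones.

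Mkrn3, which encodes a makorin ubiquitin ligase, is paternally expressed and lies between Magel2 and Peg12, but did not follow them. It had 1.02, 0.935 and 0.960 CPM in the null-labelled libraries, against 2.32, 2.17 and 1.88 CPM in the wild-type-labelled ones. All null-labelled libraries were below all wild-type-labelled ones. The log2 fold change was -1.13 ± 0.24 (SE, edgeR quasi-likelihood adjusted p = 5.50e-06). Ube3a, the ubiquitin ligase that is imprinted in neurons and expressed from both alleles in most other cells, had 141, 147 and 130 CPM in the null-labelled libraries, against 134, 132 and 124 CPM in the wild-type-labelled ones. The groups overlapped, since null-labelled replicate 3 lay among the wild-type-labelled libraries. Its log2 fold change was 0.09 ± 0.031 (SE, edgeR quasi-likelihood adjusted p = 0.00323). Without null-labelled replicate 2 the edgeR adjusted p was 0.170, without wild-type-labelled replicate 3 it was 0.127, and DESeq2 gave 0.0708, in a range of 5.5e-05 to 0.170 over all alternatives. The noncoding Snhg14, whose exons share 1803 bases with Ube3a on the opposite strand, had 145 counts over the null-labelled libraries and 225 over the wild-type-labelled ones.

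The Dlk1-Dio3 locus on chromosome 12 encodes Dlk1, a transmembrane relative of the Notch ligands that is known to hold back fat cell differentiation, from the paternal allele. A long array of noncoding RNAs is read from the maternal allele. Genes of both alleles fell. Dlk1 (chr12:109452823-109463336, plus strand) had 1.79, 1.81 and 2.03 CPM in the null-labelled libraries, against 780, 794 and 832 CPM in the wild-type-labelled ones. It kept a low level in every null-labelled library, of 31 to 38 counts, and was 427-fold lower there. The log2 fold change was -8.73 ± 0.049 (SE). With 142 RPKM under the wild-type label, Dlk1 had the highest level per length of all 37 genes there, and 0.332 RPKM under the null label.

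Meg3, the maternally expressed long noncoding RNA of the locus, had 1, 0 and 0 counts in the null-labelled libraries, against 54, 28 and 28 in the wild-type-labelled ones. Rian, which hosts small nucleolar RNAs, had 0, 1 and 0 counts in the null-labelled libraries, against 45, 26 and 44 in the wild-type-labelled ones. In both, no null-labelled library reached any wild-type-labelled one. The ratio was 106 for Meg3 (counting interval 18.6 to 4217) and 111 for Rian (19.5 to 4407). Without null-labelled replicate 1 for Meg3, or replicate 2 for Rian, the null-labelled group had no count. These RNAs were scarce under the wild-type label too, where the level per length of Dlk1 was 1368 times that of Meg3. Rtl1, a retrotransposon-derived gene needed in the placenta, missed the filter with 1, 1 and 0 counts in the null-labelled libraries, against 11, 13 and 8 in the wild-type-labelled ones, which gives a ratio of 15.4 (counting interval 3.93 to 133). Mirg, a host of microRNAs, had no count in the null-labelled libraries, against 6, 3 and 2 in the wild-type-labelled ones, and was at least 3.53-fold lower. The counts are small, and reads over the microRNA genes within exons of Rtl1 and Mirg were not counted.

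Peg10, Sgce, Ppp1r9a and Asb4 lie on chromosome 6. Peg10, a retrotransposon-derived gene essential for the mouse placenta, and Sgce, which encodes the membrane protein epsilon-sarcoglycan, start from neighbouring sites on opposite strands and are both paternally expressed. Peg10 had 0.820, 1.17 and 0.906 CPM in the null-labelled libraries, against 410, 401 and 380 CPM in the wild-type-labelled ones, and was 416-fold lower with a log2 fold change of -8.69 ± 0.062 (SE). Sgce had 5, 4 and 0 counts in the null-labelled libraries, against 464, 324 and 374 in the wild-type-labelled ones, and was 124-fold lower with a log2 fold change of -6.90 ± 0.19 (SE). The pair fell together, without overlap between the labels.

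Ppp1r9a encodes neurabin, which binds actin and protein phosphatase 1, and is maternally expressed in some tissues. It had 3, 0 and 1 counts in the null-labelled libraries, against 344, 190 and 225 in the wild-type-labelled ones, a log2 fold change of -7.38 ± 0.25 (SE). Without null-labelled replicate 1, which held 3 of the 4 counts, it was -8.57. Asb4, an ankyrin repeat protein of the same stretch, was at the limit of detection under both labels, with 8, 3 and 3 counts in the null-labelled libraries and 6, 2 and 7 in the wild-type-labelled ones, and no difference was detectable at this depth. The loss was not shared by all genes of the stretch. Named after their values were seen, the neighbours Pon3 and Pon2, paraoxonases between Ppp1r9a and Asb4, had 1186 and 3936 counts over the null-labelled libraries, against 86 and 1115 over the wild-type-labelled ones, and Casd1, next to Sgce, had 1705 counts over the null-labelled libraries and 2113 over the wild-type-labelled ones.

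**Figure D3:**
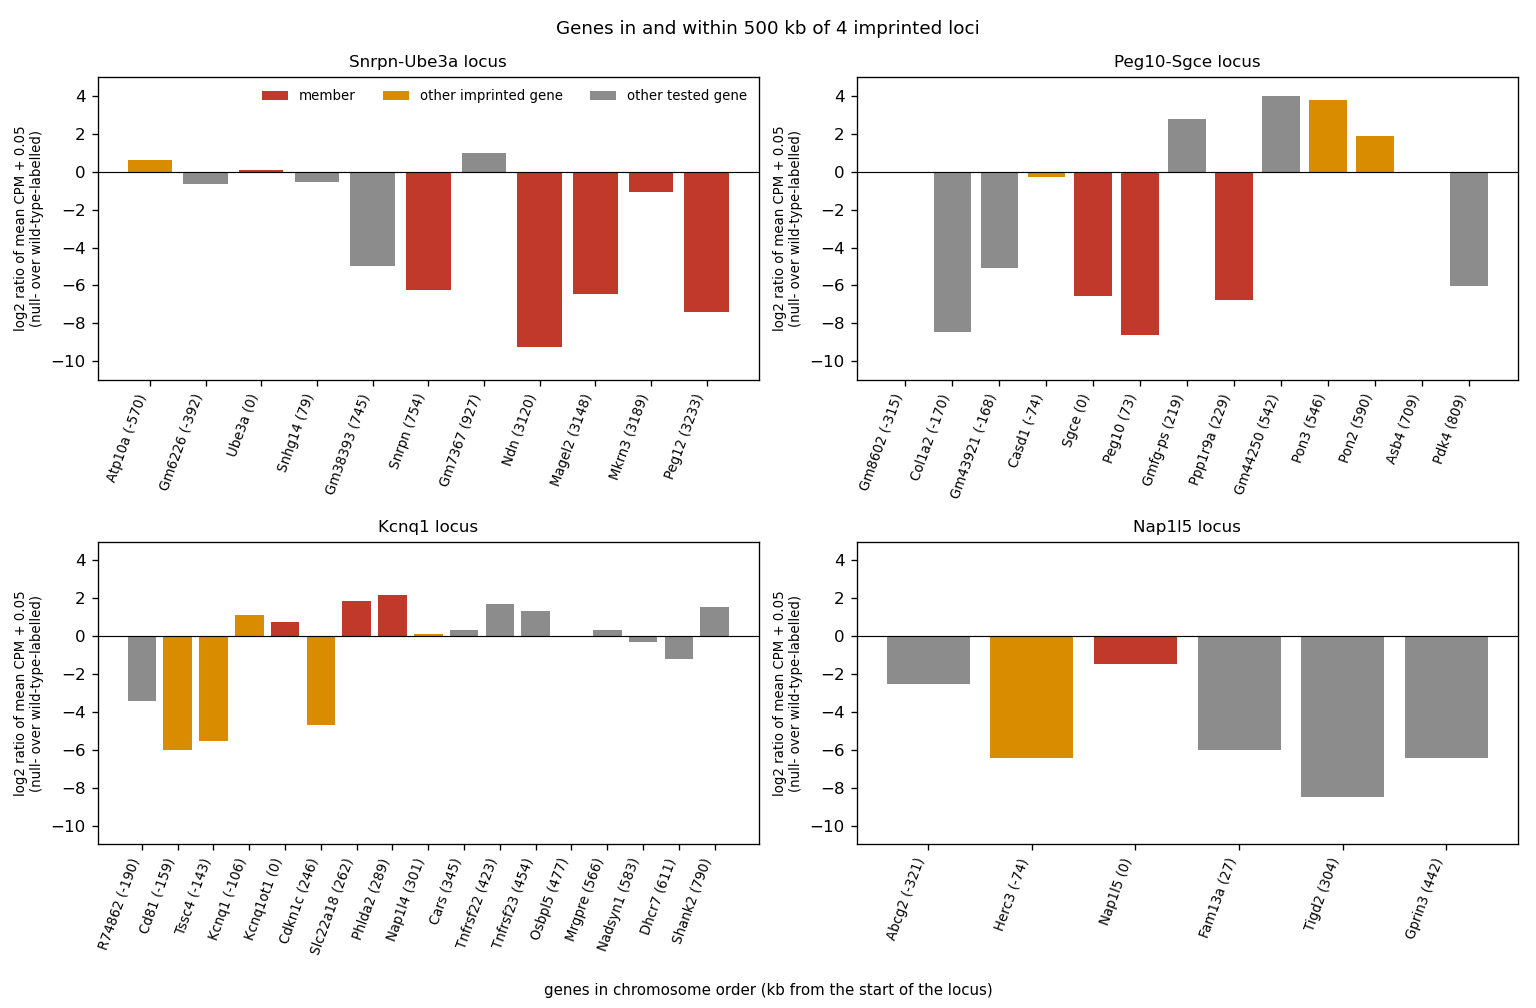
Log2 ratio of mean CPM (null-labelled over wild-type-labelled, 0.05 CPM added to both) for the genes in and within 500 kb of 4 loci, in chromosome order with the distance in kb from the start of the locus in brackets; red bars are the imprinted genes described here, orange bars other imprinted genes and grey bars other tested genes. In the Snrpn-Ube3a panel the bar of Mkrn3, which was 2.19-fold lower, stands between the far longer bars of Magel2 and Peg12, and in the Kcnq1 panel Cdkn1c, far below 0, stands between Kcnq1ot1 and Slc22a18, both above 0.

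Sfmbt2, Plagl1, Grb10 and H19 each represent a locus of their own here, and all were nearly or wholly without reads under the null label. Sfmbt2, a Polycomb family gene that is paternally expressed in the early embryo and placenta of the mouse, had no count in the null-labelled libraries, against 444, 282 and 331 counts in the wild-type-labelled ones. It was at least 339-fold lower. Plagl1, a zinc finger transcription factor that slows cell division and regulates other imprinted genes, had no count in the null-labelled libraries, against 122, 80 and 101 in the wild-type-labelled ones, and was at least 97.2-fold lower. Both are paternally expressed and both were even across the wild-type-labelled libraries, at 18.3 ± 0.901 CPM for Sfmbt2 and 5.26 ± 0.023 CPM for Plagl1 (SD, n = 3).

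Grb10 and H19 are maternally expressed in most tissues. Grb10, an adaptor that inhibits signalling by the insulin and IGF1 receptors, had 0, 1 and 1 counts in the null-labelled libraries, against 416, 311 and 373 in the wild-type-labelled ones. Its ratio was 529, with a counting interval of 146 to 4374. H19, a long noncoding RNA that holds a microRNA gene, had 1, 1 and 0 counts in the null-labelled libraries, against 739, 548 and 607 in the wild-type-labelled ones. The ratio was 911 with a counting interval of 252 to 7528, and the log2 fold change was -9.59 ± 0.20 (SE). Igf2, the paternally expressed growth factor gene beside H19, was named after its values were seen and had 1 count over the null-labelled libraries, against 132 over the wild-type-labelled ones. The neighbours expressed from opposite alleles thus both had their higher level under the wild-type label.

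The Kcnq1 locus on chromosome 7 differed from these, since its tested genes described here all rose. Phlda2, a pleckstrin homology domain protein that limits growth of the mouse placenta, had 30.9, 29.3 and 30.1 CPM in the null-labelled libraries, against 6.45, 6.56 and 7.02 CPM in the wild-type-labelled ones. The log2 fold change of 2.17 ± 0.079 (SE) was the highest among the 28, with an edgeR quasi-likelihood adjusted p = 3.08e-166. At 39.8 ± 1.04 RPKM under the null label it had the highest level per length there, and under the wild-type label it stood at 8.82 ± 0.394 RPKM. Slc22a18, a transporter gene next to Phlda2, had 2.82, 4.15 and 3.46 CPM in the null-labelled libraries, against 0.731, 1.25 and 0.838 CPM in the wild-type-labelled ones, a log2 fold change of 1.92 ± 0.22 (SE, edgeR quasi-likelihood adjusted p = 6.34e-18).

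Kcnq1ot1 is the paternally expressed RNA that silences Phlda2, Slc22a18 and Cdkn1c on its own chromosome. It rose as well, with 22.4, 24.9 and 19.03 CPM in the null-labelled libraries, against 14.1, 12.5 and 12.1 CPM in the wild-type-labelled ones, and the groups did not overlap. Its log2 fold change was 0.76 ± 0.073 (SE, edgeR quasi-likelihood adjusted p = 2.74e-25). Other imprinted genes of the same domain, named after their values were seen, moved in different directions. Cdkn1c, the growth-restraining cell cycle inhibitor p57, had 71 counts over the null-labelled libraries, against 1990 over the wild-type-labelled ones, and the tetraspanin Cd81 had 129 under the null label and 8719 under the wild-type label. Kcnq1, whose exons overlap Kcnq1ot1 on the opposite strand, was higher, with 178 counts over the null-labelled libraries and 85 over the wild-type-labelled ones. Strand was not used, so reads of unspliced Kcnq1 over the 84395 exonic bases of Kcnq1ot1 would count as Kcnq1ot1. Their share in its rise was not measured.

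Mest and Copg2 lie tail to tail on chromosome 6 and moved in opposite directions. Copg2, a coat subunit of vesicles in the Golgi that is imprinted only in some tissues, had 119, 127 and 121 CPM in the null-labelled libraries, against 47.6, 50.3 and 45.9 CPM in the wild-type-labelled ones. Its log2 fold change was 1.36 ± 0.039 (SE, edgeR quasi-likelihood adjusted p = 1.32e-262). Mest, a paternally expressed hydrolase fold protein, had 1.54, 1.17 and 1.07 CPM in the null-labelled libraries, against 1.89, 2.36 and 3.14 CPM in the wild-type-labelled ones. The groups did not overlap but lay close, and the log2 fold change was -0.95 ± 0.22 (SE, edgeR quasi-likelihood adjusted p = 3.05e-05). Exons of these genes share 912 bases on opposite strands, 23.1% of Mest and 17.8% of Copg2, where no read was counted for either.

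Airn, the paternally expressed RNA that silences Igf2r in cis, was lower, with 0.717, 0.876 and 0.906 CPM in the null-labelled libraries, against 8.35, 7.02 and 7.02 CPM in the wild-type-labelled ones. Its log2 fold change was -3.17 ± 0.18 (SE, edgeR quasi-likelihood adjusted p = 7.06e-66). Igf2r, the maternally expressed receptor that clears IGF2 and was named after its values were seen, fell too, with 489 counts over the null-labelled libraries and 13435 over the wild-type-labelled ones. The counts of the silencing RNA and of its target thus fell together. Airn and Igf2r lie on opposite strands, and strand was not used. Reads of unspliced Igf2r over exons of Airn would thus count as Airn, and their share was not measured. Slc22a3, a cation transporter imprinted in the placenta, had 1 count over the null-labelled libraries and 0 over the wild-type-labelled ones.

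Peg13, a noncoding RNA inside an intron of Trappc9, had 13.8, 13.9 and 15.8 CPM in the null-labelled libraries, against 34.0, 31.6 and 33.1 CPM in the wild-type-labelled ones. The labels were far apart, with a log2 fold change of -1.19 ± 0.065 (SE, edgeR quasi-likelihood adjusted p = 5.53e-74). Impact, an inhibitor of the stress kinase GCN2, had 55.3, 57.9 and 55.5 CPM in the null-labelled libraries, against 83.2, 77.2 and 74.1 CPM in the wild-type-labelled ones, a log2 fold change of -0.48 ± 0.041 (SE, edgeR quasi-likelihood adjusted p = 5.58e-31). Both kept a clear level under the null label, where Impact, at 16.4 RPKM, stood after Phlda2 and Copg2 in level per length.

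Gnas encodes the stimulatory G protein alpha subunit and several other products from alternative promoters, which gene counts do not separate. It had 26.6, 22.1 and 23.7 CPM in the null-labelled libraries, against 18.9, 18.7 and 18.1 CPM in the wild-type-labelled ones, and rose with a log2 fold change of 0.38 ± 0.065 (SE, edgeR quasi-likelihood adjusted p = 9.66e-09). Its antisense partner Nespas had 23, 21 and 26 counts in the null-labelled libraries, against 23, 19 and 23 counts in the wild-type-labelled ones. Its levels overlapped between the labels, at 1.26 ± 0.109 CPM under the null label and 1.15 ± 0.138 CPM under the wild-type label (SD, n = 3 each), and the log2 fold change of 0.16 ± 0.26 (SE) did not pass, with an edgeR quasi-likelihood adjusted p = 0.584. Because strand was not used, reads over the 988 bases that exons of both genes cover were left out, and 22.0% of the exonic bases of Gnas lie in exons of other genes.

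Nnat, a small membrane protein of the endoplasmic reticulum known from neurons, was low but higher under the null label, with 48, 40 and 41 counts in the null-labelled libraries and 40, 17 and 30 in the wild-type-labelled ones. Its log2 fold change was 0.63 ± 0.21 (SE, edgeR quasi-likelihood adjusted p = 0.00479). Zrsr1, a splicing factor retrogene in an intron of Commd1, had 273, 257 and 252 counts in the null-labelled libraries, against 303, 201 and 284 counts in the wild-type-labelled ones. At 14.1 ± 0.80 CPM under the null label and 13.7 ± 1.02 CPM under the wild-type label (SD, n = 3 each), the groups overlapped, and the log2 fold change of 0.04 ± 0.080 (SE) had an edgeR quasi-likelihood adjusted p = 0.613. Zrsr1 is a copy of the X-linked gene Zrsr2, so reads shared with that gene may have gone uncounted. Its host Commd1 was higher, with 2416 counts over the null-labelled libraries and 1673 over the wild-type-labelled ones.

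The remaining genes were scarce under both labels. Peg3, a zinc finger protein that acts on maternal care and growth in mice, had no count in the null-labelled libraries, against 9, 9 and 6 in the wild-type-labelled ones, and was at least 7.70-fold lower. Nap1l5, a retrogene of the nucleosome assembly protein family, had no count under the null label and 2, 2 and 1 under the wild-type label. Zdbf2 had no count in the null-labelled libraries and 2, 0 and 1 in the wild-type-labelled ones, and Zim1, a zinc finger gene beside Peg3, had 0, 1 and 0 in the null-labelled libraries and 0, 0 and 2 in the wild-type-labelled ones. Usp29, of the ubiquitin protease family, had no count in any library. For Zdbf2, Zim1, Usp29 and Slc22a3 a difference was not detectable at this depth.

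The genes beside the loci were set against those of all tested genes. Over the 171 tested genes that are the 5 nearest on each side of a locus and in no imprinted list, 67 (39.2%) were higher and 72 (42.1%) were lower, against 38.1% and 41.1% of all tested genes, and the median log2 fold change was -0.03. Of these, 18 (10.5%) were more than 16-fold lower, against 7.41% of all tested genes. At most loci with lost genes the median of the flanks was near that of all genes. The median of the 10 flanking genes was 0.10 at Plagl1, -0.04 at Grb10, -0.05 at Sfmbt2, -0.15 at Dlk1-Dio3 and -0.27 at Snrpn-Ube3a. At Peg10-Sgce it was -0.61, with 3 of 10 more than 16-fold lower, among them the collagen gene Col1a2. With 10 genes on each side the medians at these 6 loci ran from -0.29 to -0.03. The medians hide losses of single neighbours. Among these genes, 5 of 20 at Sfmbt2, 5 of 19 at Peg10-Sgce and 3 of 20 at Plagl1 were more than 16-fold lower. At Dlk1-Dio3, Grb10 and Snrpn-Ube3a it was 1 of 20 each. At H19, 7 of 10 flanking genes were higher under the null label and 2 were lower, with a median of 1.01, or 0.45 with 10 genes on each side. These flanks skip imprinted genes and on the Igf2 side reach beyond the Kcnq1 locus. Within 500 kb on that side all tested genes, named after their values were seen, were lower. Their log2 fold changes were -6.54 for Igf2, -3.69 for R74862, -6.02 for Cd81 and -5.65 for Tssc4. On the other side all but Lsp1 were higher.

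**Figure D4:**
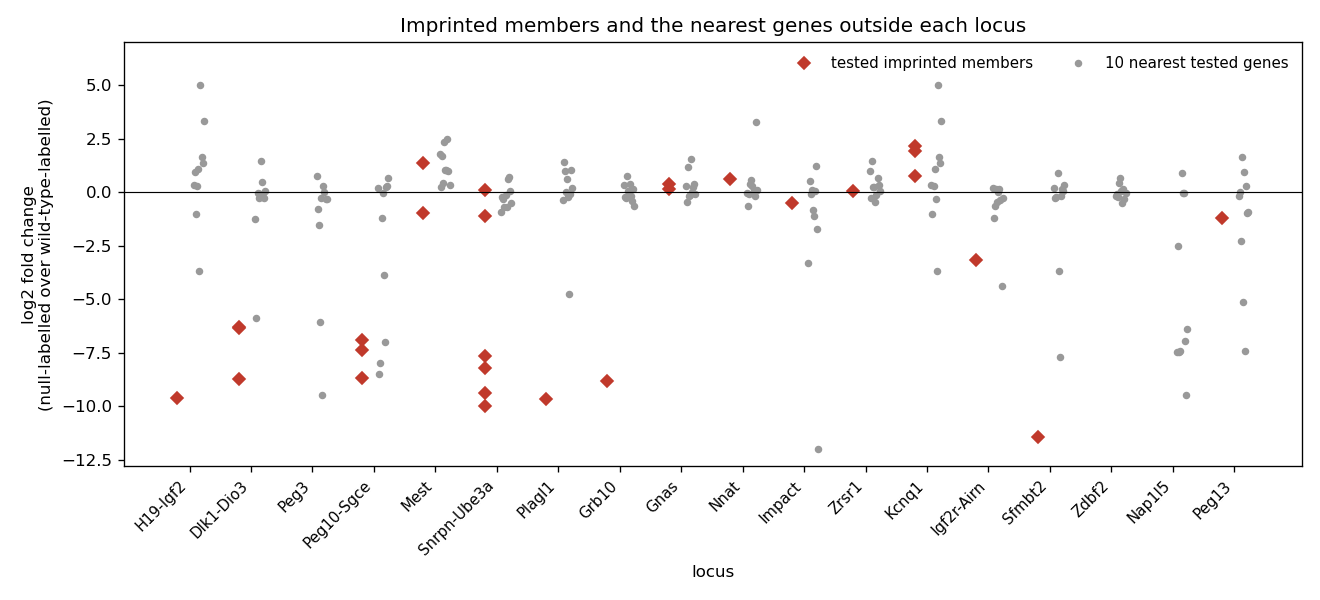
Fitted log2 fold changes (null-labelled over wild-type-labelled, edgeR, 3 libraries each) of the tested imprinted genes at each locus (red diamonds) and of the 10 nearest tested genes outside it (grey circles). At Plagl1, Grb10 and Sfmbt2 most grey points lie near 0 far above the diamond, whereas at Nap1l5, where no imprinted gene was tested, 6 of 10 neighbours are more than 16-fold lower.

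A further 37 imprinted genes outside this set were in the files, of which 23 were tested. Over all tested genes, 41.1% were lower, 38.1% were higher and 7.41% were more than 16-fold lower. Of the 23, 15 were lower, 10 of them by more than 16-fold, 7 were higher and 1 was not called, with a median log2 fold change of -0.49. Where the mean log2 CPM over the 6 libraries reached 1, the largest fitted changes were in Adam23, an adhesion protein of the Zdbf2 domain, with 0 counts over the null-labelled libraries against 369 over the wild-type-labelled ones, in the amino acid transporter Slc38a4, and in the matrix proteoglycan Dcn. Slc38a4 stood at 0.360 ± 0.046 CPM under the null label and 224 ± 1.37 CPM under the wild-type label (SD, n = 3 each), a log2 fold change of -9.25 ± 0.083 (SE). Dcn stood at 0.521 ± 0.049 CPM under the null label and 99.8 ± 5.36 CPM under the wild-type label (SD, n = 3 each), and it is also a fibroblast marker. Igf2, Htr2a and Herc3, named after their values were seen, had 1, 0 and 6 counts over the null-labelled libraries. Such genes were tested only because of the wild-type-labelled counts and could hardly differ other than downwards.

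Genes whose products set or keep imprints did not move one way. Of 24 such genes, 23 were tested, 11 were higher, 10 were lower, and the median log2 fold change was -0.03. Both directions were common over all tested genes too, of which 38.1% were higher and 41.1% were lower. Dnmt3b, a DNA methyltransferase that places new methylation, was higher, at 26.4 ± 1.21 CPM under the null label and 5.93 ± 0.498 CPM under the wild-type label (SD, n = 3 each; log2 fold change 2.15 ± 0.084 SE). Its cofactor Dnmt3l was lower, at 0.272 ± 0.060 CPM under the null label and 5.51 ± 0.523 CPM under the wild-type label (SD, n = 3 each; log2 fold change -4.32 ± 0.25 SE). Tet1, which oxidises methylcytosine, was lower as well, at 0.566 ± 0.279 CPM under the null label and 3.74 ± 0.613 CPM under the wild-type label (SD, n = 3 each; log2 fold change -2.73 ± 0.24 SE). The maintenance methyltransferase Dnmt1 and the imprint-binding Zfp57, named after their values were seen, had 22253 and 452 counts over the null-labelled libraries, against 30346 and 341 over the wild-type-labelled ones.

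Fibroblast markers fell, as did most of the tested imprinted genes, and the part of cell identity in these results was not tested. All 12 fibroblast markers were lower, with a summed level of 3461 to 3500 CPM in the null-labelled libraries and 13043 to 13414 CPM in the wild-type-labelled ones. Their median log2 fold change was -5.38 (-4.78 with the gene at 0 set at its bound). Thy1, a surface protein of fibroblasts, had 0 counts over the null-labelled libraries and 256 over the wild-type-labelled ones. The type I collagen genes Col1a1 and Col1a2 had 93 and 409 counts over the null-labelled libraries, against 35794 and 149689 over the wild-type-labelled ones. Of the 12 markers, 6 were more than 16-fold lower, and the others fell by less. Those others were named after their values were seen. The receptor genes Pdgfra and Pdgfrb stood at 89.4 and 29.0 CPM under the null label, against 250 and 107 CPM under the wild-type label. Twist1, Twist2 and Prrx1 stood at 59.5, 14.7 and 59.7 CPM under the null label, against 159, 72.5 and 550 CPM under the wild-type label. Vim, a filament protein of fibroblasts and other cells, stood at 3211 CPM under the null label, against 5622 CPM under the wild-type label.

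Markers of other cell types gave no single pattern. Of 10 epithelial markers 4 were tested, 2 were higher and 1 was lower, and their sum was 385 to 412 CPM in the null-labelled libraries and 108 to 111 CPM in the wild-type-labelled ones. Nearly all of that sum was the keratin Krt8, at 397 CPM under the null label and 107 CPM under the wild-type label, while Epcam had 6 and 9 counts over the libraries of these labels. The lower marker was the keratin Krt18, with 16 counts over the null-labelled libraries and 69 over the wild-type-labelled ones. Of 10 trophoblast markers 2 were tested, and Hand1 was higher and Eomes was lower. Eomes had 6 counts over the null-labelled libraries and 55 over the wild-type-labelled ones. The sum of the 10 was 20.2 to 20.8 CPM in the null-labelled libraries and 1.64 to 2.36 CPM in the wild-type-labelled ones. Under the null label nearly all of it was Hand1, while Cdx2 and Prl3d1 had 0 counts in all libraries. Of 8 neural markers 5 were tested, 1 was higher and 2 were lower, and their sum of 437 to 462 CPM in the null-labelled libraries and 318 to 324 CPM in the wild-type-labelled ones was mostly Nes. The lower ones, Map2 and Snap25, were all but lost. Each had 1 count over the null-labelled libraries, against 235 for Map2 and 138 for Snap25 over the wild-type-labelled ones. The 8 pluripotency markers were all below the filter, with a sum of 0.586 to 0.922 CPM in the null-labelled libraries and 0.722 to 1.10 CPM in the wild-type-labelled ones. Of 7 leukocyte and 6 endothelial markers 2 each were tested, 1 higher and 1 lower. Leukocyte markers summed to 3.20 to 3.59 CPM in the null-labelled libraries and 3.66 to 3.74 CPM in the wild-type-labelled ones, and endothelial markers to 2.25 to 2.99 CPM and 1.76 to 2.30 CPM under the same labels.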

How the data were processed

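Counts from 6 RNA sequencing libraries were used. Per the file headers, the authors made the deposited counts (reads per gene, summed over exons and not normalized) with featureCounts 1.6.2 from Ensembl release 83, GRCm38 with mm10 chromosome names. The headers show no option for strand, multimapping or reads in several genes. The submitters' processing notes list Trimmomatic 0.33, FastQC 0.11.2, Subread 1.6.2 and a featureCounts version, 1.2.6, other than that of the headers. Library totals ran from 15598566 to 23681718.

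Gene identifiers were matched to symbols (98.9% of 46983 genes). Genes kept by filterByExpr (15199) were scaled by TMM. They were tested with the quasi-likelihood F-test of edgeR 4.0.16 (R 4.3.3), null-labelled against wild-type-labelled, without covariates. Adjustment was by the Benjamini-Hochberg method over all tested genes, with a threshold of 0.05. The SE is the log2 fold change over the square root of F. RPKM are CPM per kilobase of exon, as the files give its length. A group at 0 was set at 3 counts over its libraries for a bound, and ratios against 1 to 3 counts have exact binomial 95% intervals. Such intervals and bounds hold for counting error alone, because reads are not independent molecules. Bases upstream of start sites came from RefSeq (GRCm38.p6). The fit was tested on simulated data.

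The alternatives were size factors by median of ratios, DESeq2 1.42.0, voom of limma 3.58.1, other filters, an adjusted p under 0.01, a replicate block, leaving out each library, and 10 flanking genes a side. The imprinted genes, the other lists and the allele of each gene, taken from general knowledge, were chosen with earlier results of these data known. Named were all 37 imprinted genes, Sphk2, genes whose exons overlap theirs, and of each other list at most the 3 tested genes with the largest called change at an average log2 CPM of at least 1. Genes named outside this rule are marked in the text or are markers of cell types.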

Additional observations from a re-analysis of the deposited data

How the results depend on the processing

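Counts of calls kept within 1.5 times of their main value under all alternatives run. Of the imprinted genes, 19 were lower in each but the fit without a filter (22), and 6 to 7 were higher. Over all genes, 5206 to 6011 were higher and 5798 to 7303 were lower. Repeats of the fit for the 28 tested genes kept direction and call 332 times. The exceptions were Ube3a, as given above, and Zrsr1, whose log2 fold change ran from -0.0030 to 0.10 on leaving out each library and was -0.0030 without wild-type-labelled replicate 1 (edgeR quasi-likelihood adjusted p = 0.979, in a range of 0.294 to 0.990 over its alternatives). The cause was not tested. The size of losses resting on a few null-labelled counts moved more. Without the only null-labelled library with a count, the fitted log2 fold change was -8.16 for Meg3, -8.26 for Rian and -9.55 for Snrpn, fits against 0 counts that are no measure of size. Same-numbered libraries did not deviate together (correlations of 0.020, -0.0047 and 0.026). No pairing by number was visible, which does not show whether the libraries were prepared in pairs. With a replicate block, 7 imprinted genes were higher and 19 lower, and over all genes 5765 were higher and 6238 lower. With 10 in place of 5 flanking genes a side, the median moved at 14 of 18 loci by more than its SD over the null-labelled libraries. It moved most at Nap1l5, where it was -0.06. There that SD was 0.0 with 5 genes a side, so any move would exceed it. Scaling moved the median of all genes by less than 0.1 on the log2 scale. Depth limits the 9 genes below the filter, which had at most 32 counts over the 3 libraries of either label.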

Other observations

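The neighbourhood of Nap1l5 on chromosome 6 had the lowest median of flanking genes among the 18 loci, although Nap1l5 itself was barely expressed. These genes were named after their values were seen. Tigd2, a gene derived from a transposase, had 2 counts over the null-labelled libraries and 1745 over the wild-type-labelled ones. Gprin3 had 2 counts over the null-labelled libraries and 420 over the wild-type-labelled ones, and Fam13a had 1 and 249 under the same labels. Herc3, the imprinted gene in whose intron Nap1l5 lies, had 6 counts over the null-labelled libraries and 809 over the wild-type-labelled ones. Abcg2, a drug efflux transporter, lies on the side of Nap1l5 away from Tigd2, Gprin3 and Fam13a. It kept 417 counts over the null-labelled libraries, against 2459 over the wild-type-labelled ones. The median log2 fold change was -6.66 over the 10 flanking genes, 6 of them more than 16-fold lower, and -0.06 over 20 flanking genes. With 10 genes on each side the lowest median was instead at Zdbf2, at -0.32.

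The opposite held around Mest and Copg2, also on chromosome 6, where all 10 flanking genes were higher under the null label and their median log2 fold change was 1.02. Of 20 flanking genes, 18 were higher and 2 were lower, and the median was 0.79.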
